A study of Mus musculus with 2 samples.

Results

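The Btbd35f genes are a multicopy family of genes on the mouse X chromosome. Members were the protein-coding genes whose symbol starts with Btbd35f in the GRCm38.p6 annotation, and each was read over its span plus 1 kb on each side. This gave 29 of 21896 protein-coding genes, all on X, and 182 of the 2537435 listed windows of 100 bp. The family was picked with earlier results of these libraries in view, so all values below are descriptions and none is a test. Methylated DNA was captured from testis with the part of mouse MBD2 that binds methylated CpGs and was then sequenced, in 1 library labelled Kaiso KO and 1 labelled wildtype, both on a C57BL/6 background. The knockout testis was labelled as coming from generation 3 offspring with male sterility, while its free-text description also names it as WT testis. Age, the deleted part of the Kaiso gene (Zbtb33) and the number of mice per library were not given in the sources used here. Values are for the library labelled Kaiso KO against the library labelled wildtype.

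BTB domains are protein interaction modules, and many BTB proteins bring substrates to ubiquitin ligases built on cullin 3. The annotation lists germ cell-less-like names (Gmcl1l, Gmcl2) among the older symbols of several Btbd35f genes. Germ cell-less was first described in Drosophila, where it acts in the formation of the germ cell precursors, and its mouse counterpart Gmcl1 lies outside chromosome X. Multicopy X-linked genes of the mouse are often expressed in male germ cells. DNA methylation at CpGs is a mark of silenced promoters, and germline genes commonly carry it in somatic tissues.

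Promoter sequences, 250 bases before to 50 after the gene start, were found in RefSeq (GRCm38.p6) for 9 of the 29 members and are shown because they place the captured windows and show how alike the copies are. The 36 pairs were 97.6 to 100% identical over 264 to 300 aligned bases, and 2 pairs were identical throughout their aligned bases. Each promoter held only 1 or 2 CpGs, against a median of 7 over the 32851 promoters of the same table. The promoters of Btbd35f3 (chrX:4037424-4037723, plus strand) and Btbd35f22 (chrX:32047491-32047790, plus strand) follow 5′ to 3′, with CpGs in capitals.
Btbd35f3: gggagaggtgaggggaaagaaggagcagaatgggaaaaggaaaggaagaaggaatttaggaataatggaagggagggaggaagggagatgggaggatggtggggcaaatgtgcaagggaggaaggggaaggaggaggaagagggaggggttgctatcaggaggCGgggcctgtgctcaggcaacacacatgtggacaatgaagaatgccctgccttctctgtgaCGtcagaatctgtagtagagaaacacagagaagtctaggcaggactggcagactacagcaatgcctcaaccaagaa
Btbd35f22: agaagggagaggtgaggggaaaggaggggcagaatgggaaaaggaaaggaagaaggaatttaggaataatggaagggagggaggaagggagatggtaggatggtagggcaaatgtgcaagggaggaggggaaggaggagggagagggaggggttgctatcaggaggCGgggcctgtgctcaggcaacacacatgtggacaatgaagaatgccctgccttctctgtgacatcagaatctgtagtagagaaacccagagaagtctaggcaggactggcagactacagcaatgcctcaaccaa

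The CpG that all 9 promoters share lies in the letters GGCGGGGC, which 14.2% of all promoters in the table hold on either strand. A second element lay between 61 and 19 bases before the start. It read TGACGTCA, the palindrome of the cAMP response element, in 3 members and TGACATCA in the other 6. Of all promoters in the table, 1.79% held TGACGTCA and 3.62% TGACATCA, counted on both strands. Stretches of 30 bases are shown with the element in capitals. The first is shared by Btbd35f3, Btbd35f4 and Btbd35f13, the second by Btbd35f22, Btbd35f28, Btbd35f7, Btbd35f21 and Btbd35f8, and the third is that of Btbd35f6.
Btbd35f3: tgccttctctgTGACGTCAgaatctgtagt
Btbd35f22: tgccttctctgTGACATCAgaatctgtagt
Btbd35f6: tgccttctctgTGACATCAgactctgtagt
The letters TCCTGCNA, the methylation-independent Kaiso motif, and CGCG, the core of its methylated motif, were searched on both strands and were in 0 of the 9 windows, against 4.96% and 38.0% of all promoters. All these motifs were chosen after the sequences had been seen, and a match or its absence describes only the letters of these windows.

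The knockout library held 98549116 reads and the wildtype library 87710791, the library sizes implied by the deposited counts and RPKM. RPKM relates a count to the length of the window and the size of the library. The deposited table lists only windows with an unadjusted p under 0.05 in the authors' comparison, so an unlisted window was not shown to be equal, and listed ratios are pushed away from 1. With 1 library per genotype there was no replicate check. The 95% intervals are exact Clopper-Pearson ones on fragments, taken as window counts divided by 4, and cover counting error only. Zbtb33 itself had 83 knockout and 303 wildtype counts in 16 listed windows (log2 ratio -2.04). The copies may share reads, since no source used here says how reads with several matches were placed, so values of single copies are uncertain and not independent of each other.

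Captured DNA was higher in the knockout library in the listed windows of every Btbd35f gene. Over the 182 windows, none of which belonged to 2 members, the sums were 4470 knockout and 901 wildtype counts. The ratio was 4.42-fold (3.83 to 5.13), or 2.14 on the log2 scale (1.94 to 2.36). All 182 windows were higher in the knockout library, against 64.7% of the listed windows elsewhere on X and 56.5% of all listed windows outside the family. Per window the median was 23.5 knockout and 4 wildtype counts, with a range of 9 to 61 in the knockout library and 0 to 14 in wildtype. In the authors' deposited table the median log2 fold change of these windows, turned to knockout over wildtype, was 2.37. The relative methylation score of the authors' deposited table, whose scale is not stated, had a median of 0.112 in the knockout library and 0.024 in wildtype.

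Each of the 29 members passed a minimum of 20 fragments over both libraries, and with knockout set over wildtype 29 were higher by 2-fold or more and 0 lower by as much. Over all protein-coding genes outside the family with that minimum, 9.6% of 19192 were that much higher and 5.81% that much lower. On X outside the family it was 28.2% of 765 genes higher and 12.4% lower. Nothing is read from this contrast with the background, because the family was chosen on it. The median member had a log2 ratio of 2.17, with a range of 1.47 to 3.32. All 29 intervals lay above a log2 ratio of 0, and 14 of them lay wholly above 1, the 2-fold mark. The lowest listed window of the family had a log2 ratio of 1.02, so no sum of these windows could fall below 2-fold. At such low counts the listing by p leaves out smaller differences, so the 2-fold count and these intervals were shaped by it. The mean RPKM per listed window was between 1.80 and 3.90 in the knockout library, with a median of 2.39, and between 0.19 and 1.14 in wildtype, with a median of 0.481. The lowest knockout value of any member was thus above the highest wildtype value of any member. These means cover only windows listed for a difference, which pushes ratios away from 1, so part of this gap was set in advance. The members are copies and not replicates.

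**Figure D1:**
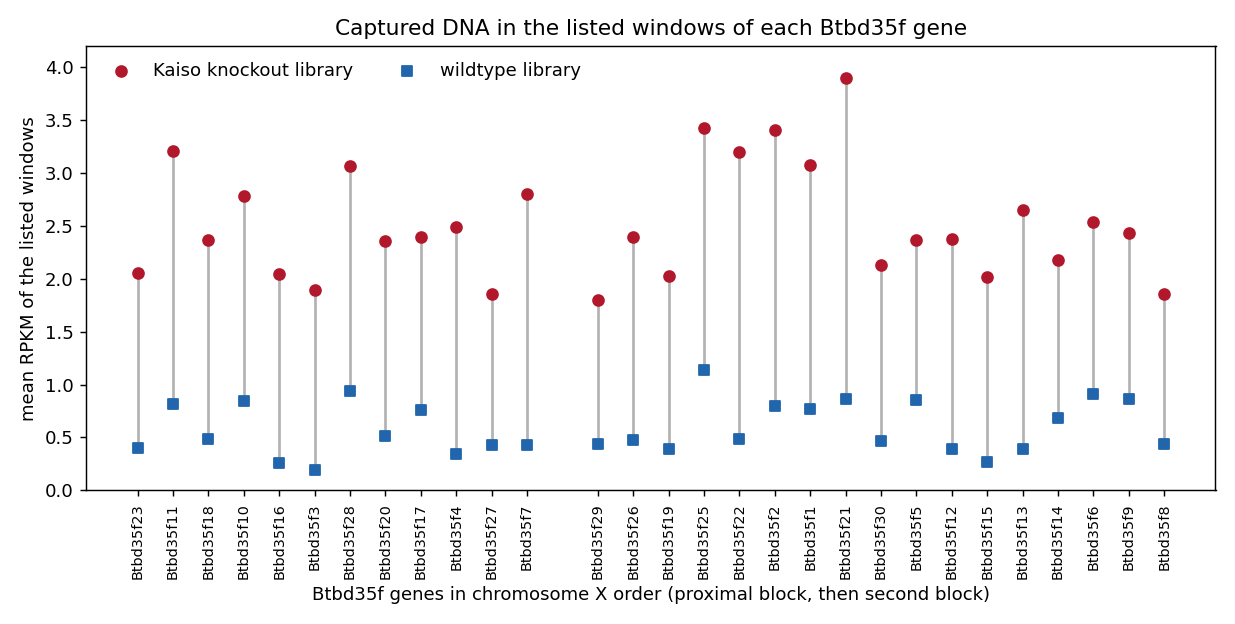
Mean RPKM of the listed windows of each of the 29 Btbd35f genes, in chromosome order, with circles for the Kaiso knockout library and squares for the wildtype library and a grey line joining the values of 1 gene. All circles lie between 1.80 and 3.90 and all squares between 0.19 and 1.14, so that the values do not overlap in these windows, which were listed for a difference.

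The members with the most counts, summed over their listed windows in both libraries, lay mainly in the second of the 2 blocks that the family forms. That block also holds more members, 17 against 12. Such sums depend on how many windows were listed. As mean knockout RPKM per listed window, Btbd35f30 (2.13) and Btbd35f12 (2.38) lay below the member median of 2.39. Btbd35f17 (2.40), Btbd35f1 (3.07), Btbd35f22 (3.20) and Btbd35f25 (3.42) lay above it. The highest mean was that of Btbd35f21 (3.90). Btbd35f22, from 32047741 to 32049551, had 284 knockout and 38 wildtype counts in 9 windows (log2 ratio 2.73, 1.70 to 3.78). Btbd35f25, from 31715344 to 31717235, had 236 knockout and 70 wildtype counts in 7 windows, the highest wildtype count of the family (1.59, 0.76 to 2.39). It was followed by Btbd35f30, which had the most listed windows, 12, with 252 knockout and 49 wildtype counts (2.19, 1.32 to 3.25).
Of these 3 members Btbd35f22 had the most knockout and the fewest wildtype counts, and Btbd35f25 the fewest knockout and the most wildtype counts. Btbd35f1, from 32560055 to 32562009, had 212 knockout and 47 wildtype counts (2.01, 1.05 to 3.01). Btbd35f17 and Btbd35f12 had the same total of 60.5 fragments. In Btbd35f17, a gene of the first block, it was made up of 189 knockout and 53 wildtype counts (1.67, 0.78 to 2.70), and in Btbd35f12 of 211 knockout and 31 wildtype counts (2.60, 1.48 to 3.84). Their intervals overlap widely, so these 2 copies are not separated beyond counting error.

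The largest ratios belonged to copies with very few wildtype counts. Btbd35f3, from 4037674 to 4039622, had 112 knockout and 10 wildtype counts in 6 windows (log2 ratio 3.32, 1.36 to 5.42). Btbd35f16, from 3955043 to 3957002, had 141 knockout and 16 wildtype counts in 7 windows (2.97, 1.48 to 4.91). Btbd35f15, from 33575387 to 33577346, had 119 knockout and 14 wildtype counts in 6 windows (2.92, 1.23 to 4.70).
The knockout counts of these copies were below the family median of 146. The smallest ratios belonged to Btbd35f5 with 140 knockout and 45 wildtype counts (1.47, 0.49 to 2.63), Btbd35f6 with 75 and 24 (1.48, 0.11 to 3.11) and Btbd35f9 with 120 and 38 (1.49, 0.35 to 2.61). All 3 lie in the second block, and their intervals overlap those of the members with the largest ratios. The other 17 members had 73 to 202 knockout counts, with a median of 146, and 15 to 41 wildtype counts, with a median of 27. Their log2 ratios ran from 1.67 to 2.86. Even the highest and the lowest member, Btbd35f3 and Btbd35f5, have intervals that overlap, from 1.36 to 2.63.

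The 9 members with a promoter can be set side by side by the element shown above, a split made after the sequences had been seen. The copies may share reads and are not replicates, so nothing is read from the split. Btbd35f3 and Btbd35f4, both with TGACGTCA, have identical promoters. Btbd35f7 and Btbd35f8, both with TGACATCA, are identical over their aligned bases, with log2 ratios of 2.69 and 2.07. The 3 with TGACGTCA had log2 ratios of 2.76 to 3.32, from 112 to 183 knockout and 10 to 24 wildtype counts. The 6 with TGACATCA had 1.48 to 2.73, from 75 to 284 knockout and 19 to 41 wildtype counts. The nearest values, 2.76 for Btbd35f13 and 2.73 for Btbd35f22, differ by far less than their intervals of 1.54 to 4.29 and 1.70 to 3.78. No listed window overlapped the 9 promoters, so the table gives no level over the element itself.

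The listed windows lay inside the genes. None of the 580 windows of 100 bp in the flanks of the 29 members was listed, and 182 of the 588 that overlap a gene span were, or 31.0%. Windows with no CpG, fewer than 10 counts over both libraries or no difference at the authors' p are not in the table, so the empty flanks give no level. Strand was known for the 9 members with a promoter, 8 on plus and 1, Btbd35f6, on minus. In these the 54 listed windows had centres from 110 to 1415 bp after the start, with a median of 480 bp, and 47 of them lay within 750 bp.
Between 200 and 400 bp after the start, all 9 members had a listed window, with means of 32.1 knockout and 5.57 wildtype counts per window (log2 ratio 2.36, 1.62 to 3.08). Between 400 and 600 bp, again in all 9, the means were 34.9 knockout and 5.27 wildtype counts (2.56, 1.86 to 3.30). In the first 200 bp, with windows in 7 members, they were 17.7 knockout and 4.14 wildtype counts (1.93, 0.77 to 3.41). From 600 to 800 bp, in 8 members, they were 21.7 and 3.82 (2.34, 1.34 to 3.36).
Beyond 800 bp no interval of 200 bp had windows in more than 2 members. Among the listed windows of these 9 members, mean knockout counts were thus highest between 200 and 600 bp into the gene. Wildtype counts stayed under 6 per listed window on average in each of these intervals. Unlisted windows of the genes give no level, so where capture peaks along the whole gene is not known.

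**Figure D2:**
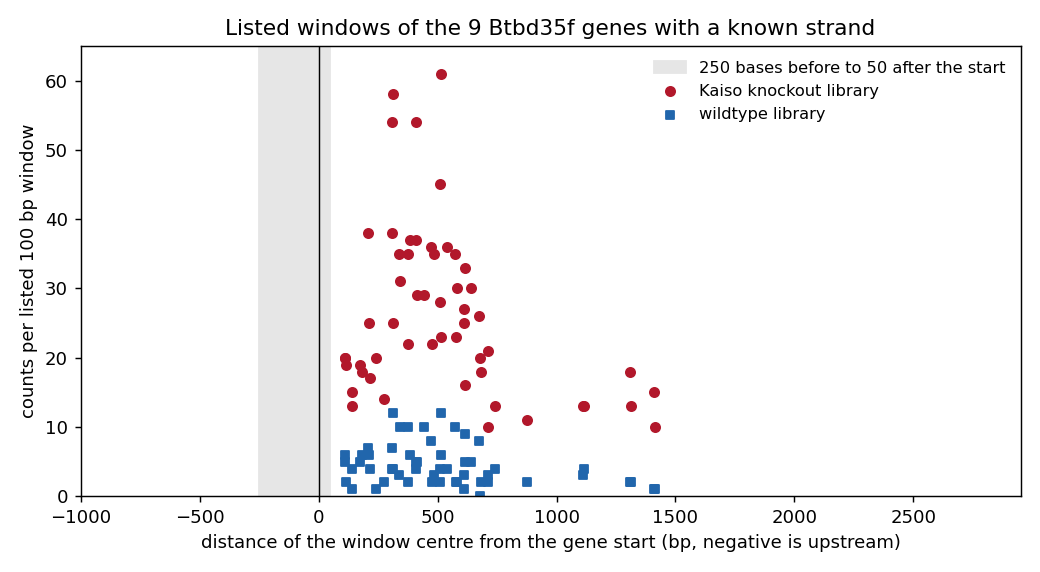
Counts of each listed 100 bp window of the 9 Btbd35f genes of known strand, against the distance of the window centre from the gene start in bp, with circles for the Kaiso knockout library, squares for the wildtype library and the promoter shaded. The 54 windows lie from 110 to 1415 bp after the start, 47 of them within 750 bp, and the shaded promoter holds none.

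In each member of unknown strand most listed windows also lay on 1 side of the gene's midpoint. The split was near even in Btbd35f23 (6 and 4 windows) and Btbd35f30 (7 and 5). Over the family, 19 of 29 members had all their windows on 1 side of the midpoint, among them 7 of the 9 of known strand. For 7 members the annotation places the end of another gene 15 to 229 bp away, 6 of them at 208 to 229 bp. These neighbours are 4 long noncoding RNA genes and 3 pseudogenes, and in 7 of 7 cases they lie on the side that holds most of the listed windows. They are Gm46694 beside Btbd35f11, Gm53053 beside Btbd35f18, Gm46693 beside Btbd35f16, Gm14355 beside Btbd35f3, Gm14362 beside Btbd35f17, Gm46695 beside Btbd35f22 and Gm15281 beside Btbd35f15. Genes that overlap a member have no side and are left out of this count. They are Gm14355 at Btbd35f16 and Gm14362 at Btbd35f28 and Btbd35f20. The members are copies of 1 family that may repeat the same arrangement, and no share over other genes was computed, so nothing is read from the count.

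Single windows showed the same direction at each position. The highest knockout counts were 61 and 58 in Btbd35f21, in windows starting at 32726601 and 32726401, against 12 wildtype counts in each. They were 57 against 10 in Btbd35f2, from 32278701, and 54 and 54 against 7 and 5 in Btbd35f22, from 32048001 and 32048101. These 5 windows held 1 to 3 CpGs and had ratios of 4.30-fold to 9.61-fold.
A wildtype count of 0 was found in 4 windows. One of Btbd35f3, from 4038301 to 4038400, had 20 knockout counts and was at least 5.93-fold higher than in wildtype, against a floor of 3 counts per window. One of Btbd35f19 had 16 (at least 4.75-fold), and of Btbd35f30 there were 2, with 15 and 14 (at least 4.45-fold and at least 4.15-fold). No family window lacked knockout counts. The 7 windows with 4 CpGs, the most in the family, had 22 to 37 knockout and 2 to 13 wildtype counts, with log2 ratios of 1.09 in Btbd35f25 to 3.36 in Btbd35f3.

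In the family the log2 ratio lay between 1.85 and 2.21 at each number of CpGs per window, while on the rest of X it was larger with more CpGs. Family windows with 1 CpG, 67 in number, were all higher in the knockout library (log2 ratio of sums 2.21, 1.83 to 2.61). On X outside the family 45.7% of single-CpG windows were higher (0.021). With 2 CpGs the log2 ratio was 2.15 in 53 family windows and 0.26 in the rest of X, and with 3 CpGs 2.12 in 55 family windows and 0.53 in the rest of X.
With 4 CpGs it was 1.85 in the family (0.93 to 2.91) and 0.75 in the rest of X, where 93.2% of such windows were higher. The rest of X thus mixes windows listed in either direction, in shares that change with the number of CpGs. All family windows were higher, so the 2 series are not alike. In single-CpG windows the median was 1.83 RPKM in the knockout library and 0.342 in wildtype in the family, against 1.12 and 1.82 in the rest of X. In windows with 3 CpGs it was 2.74 and 0.57 in the family, against 3.55 and 2.51 in the rest of X. Over all classes, the median knockout level was 2.38 RPKM in the family and 2.84 in the rest of X, and the median wildtype level was 0.456 RPKM in the family and 2.28 in the rest of X.

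**Figure D3:**
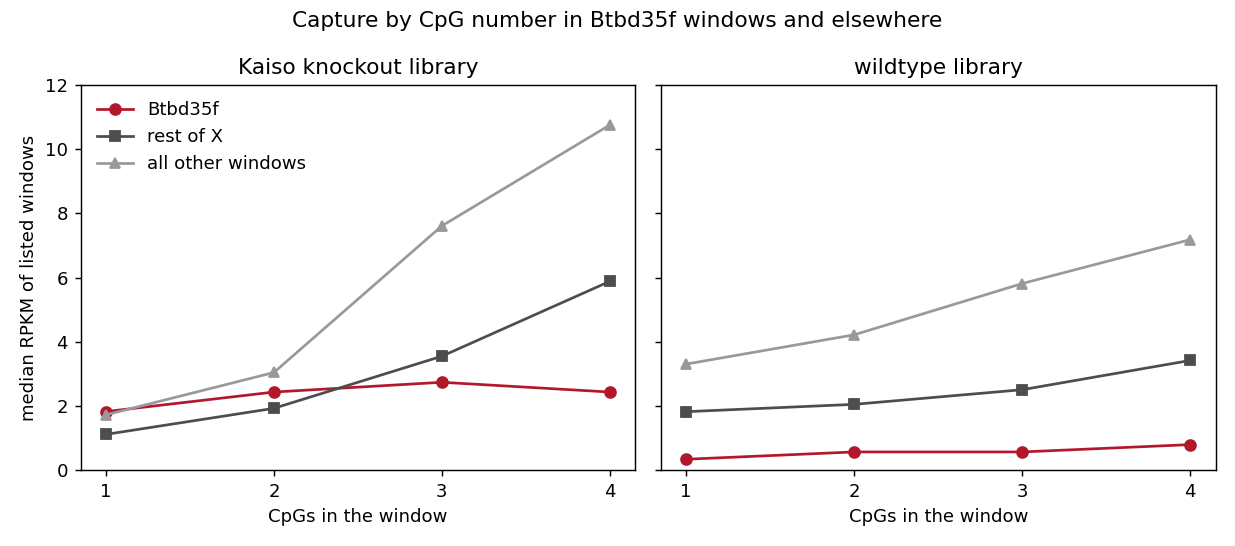
Median RPKM of listed windows by number of CpGs per window, in the Kaiso knockout library (left) and the wildtype library (right), for Btbd35f windows, the rest of chromosome X and all other listed windows. In wildtype the family lies at 0.342 to 0.798 RPKM, below the other sets at each CpG number. In the knockout library it lies at 1.83 to 2.74 RPKM, above both other sets at 1 CpG, between them at 2 and below both at 3 and 4. The other sets hold windows listed in either direction, while all family windows were higher in the knockout library.

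The ratios of the 2 blocks differed by less than their intervals. The 12 members of the first block, from 3076920 to 5671026, summed to 1704 knockout and 328 wildtype counts in 72 windows (log2 ratio 2.21, 1.87 to 2.57). The 17 members of the second, from 31117576 to 34452419, summed to 2766 knockout and 573 wildtype counts in 110 windows (2.10, 1.84 to 2.38). Listed windows between the members were mostly higher in the knockout library too, but by less. In the first block 93.1% of 846 such windows were higher, with a log2 ratio of 0.67 (0.63 to 0.71), and in the second 95.6% of 1173, with 0.70 (0.66 to 0.73). Their median counts were 62.5 knockout and 33 wildtype in the first block, and 66 and 34 in the second, against 22 and 4 and against 24 and 5 in the family windows. They also held more CpGs, 2.96 and 3.01 per window on average against 2.08 and 1.96. At higher counts smaller differences pass the authors' p, so the listing alone can lower their ratios. Nothing is read from the contrast in ratios.

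Other multicopy families of X, listed by symbol, were more varied. Of 88 genes with the minimum, 58 (65.9%) passed 2-fold upward and 2 (2.27%) downward. Their median log2 ratio was 1.76, the lowest was -1.42 and the highest belonged to the Cypt family. The Rhox homeobox genes, 33 of the 88, were the largest of these families, with 27 higher, 0 lower and a median of 2.01. Both Slx genes were higher (median 2.43). Fthl17 genes, which encode ferritin heavy chain-like proteins, were higher in 7 of 7, with a median of 2.43. Their range of 1.87 to 3.01 lay inside that of the Btbd35f genes. In the Xlr family 6 of 10 were higher (median 1.68), and in the Magea family, of cancer-testis antigens, 5 of 6 (2.55) with 1 lower. Of the H2al1 genes, which encode histone H2A variants of the testis, 1 of 11 was higher (median 0.59), and of the Ssxb genes 0 of 3 (0.47). Read sharing between copies applies to these families as well.

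Autosomal relatives by name were near the genome's median. Of 14 genes called Btbd with a number or Gmcl, 1 (7.14%) passed 2-fold upward and 0 downward, and the median was 0.23. Btbd18, a gene that acts in piRNA production in mouse testis, was the higher one, with 2034 knockout and 794 wildtype counts (log2 ratio 1.19, 0.95 to 1.43). Gmcl1 had 3516 knockout and 2550 wildtype counts (0.30, 0.15 to 0.44). The median of all protein-coding genes outside the family was 0.31 and that of X genes 0.43. The family median lay 1.86 above the first and 1.74 above the second. A uniform scaling shifts all genes alike, so it cannot test these differences. Nothing is read from them, because the family was chosen on this contrast. Of the 765 X genes outside the family 22.4% had a ratio above that of the lowest Btbd35f member and 30 had one above the highest.

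**Figure D4:**
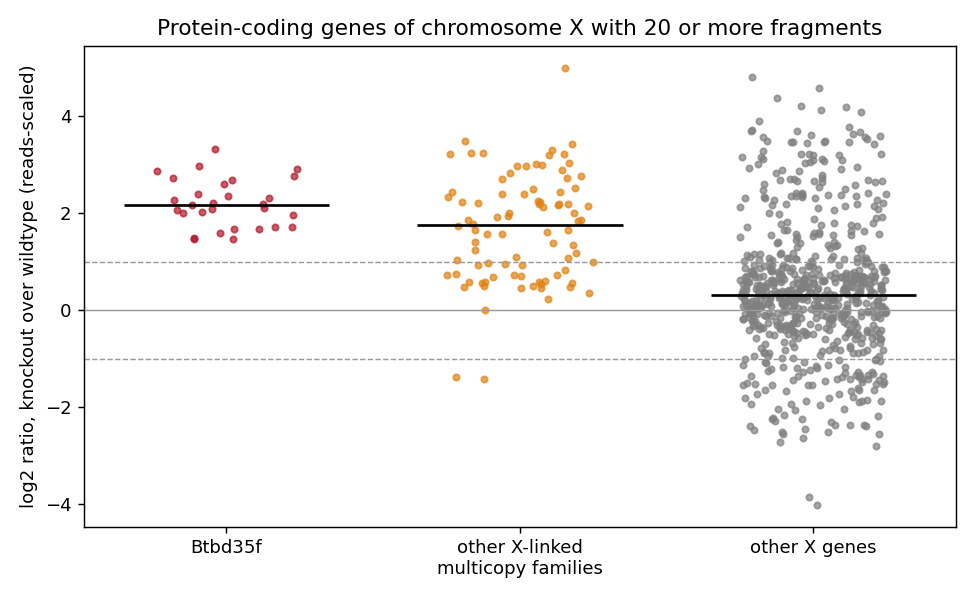
Log2 ratio of knockout over wildtype of each protein-coding gene of chromosome X with 20 or more fragments, for 29 Btbd35f genes, 88 genes of other multicopy families and 677 other genes, with a black line at each median (2.17, 1.76 and 0.31) and dashed lines at 2-fold. The Btbd35f genes span 1.47 to 3.32, all above the upper dashed line.

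The mix of cells in the 2 testes was not labelled. Gene ends of 2 lists that mark it were higher in the knockout library as well. Among germline genes known for methylation in somatic tissue, 18 of 24 (75%) passed 2-fold upward and 0 downward, and their median log2 ratio was 2.49. Among imprinted genes with maternal methylation it was 15 of 16 (93.8%) upward and 0 downward, and the median was 2.50. The background for gene ends was 22.7% higher and 14.1% lower. The part of cell composition in the Btbd35f values was not tested, and with 1 library per genotype it cannot be told apart from the genotype.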

How the data were processed

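The members and gene lists were chosen with earlier results of these data known. Per the submitters' processing notes, Bowtie2 2.2.6, edgeR and mm10 (GRCm38) were used, in an order not given there. The authors deposited 1 table of 100 bp windows, with raw read counts and RPKM per library, the number of CpGs and a relative methylation score per window, a log2 fold change of wildtype over knockout and p-values, per the file headers. A further 10 columns of values were not used here. Samples were grouped by the genotype label. Counts were summed over each gene span plus 1 kb from the GRCm38.p6 annotation, which gives spans without exons, and scaled by library reads. Genes were counted as higher or lower with at least 20 fragments and a change of 2-fold or more, and regions without a whole fragment were set to 12 counts.

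Named members were the 5 with most fragments (6 with a tie) and the 3 highest and 3 lowest ratios. Named windows were the 5 with most knockout counts, those with most CpGs and those without a count in 1 library. No edgeR test was run, because each genotype has 1 library; edgeR 4.0.16 (R 4.3.3) gave TMM factors as an alternative scaling. Python 3.11.15 and scipy 1.17.1 were used, and the calls were run on simulated fragments of whole genes. That simulation had no listing by p, no shared reads and no variation between animals, so it does not cover those limits. Other scalings, regions, minimums, folds and window filters were tried.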

Additional observations from a re-analysis of the deposited data

How the results depend on the processing

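No paired analysis was possible because each genotype has 1 library, and for the same reason no replicate could be left out. Over 17 alternatives all listed family windows stayed higher in the knockout library, and 0 members were at least 2-fold lower. Most alternatives could not have changed this. The lowest family window had a log2 ratio of 1.02, while the largest downward shift of any scaling was -0.66. Filters only drop windows, and only the flanks of 5 kb added any. The summed log2 ratio of 2.14 and the member median of 2.17 became 1.87 and 1.90 with autosomal counts, 1.70 and 1.73 with chromosome X counts, and 1.49 and 1.51 when the median of CpG-rich windows, those of at least 5 CpGs, was set to 0. When each CpG class was centred on its own median they were 2.70 and 2.72, and with windows of an authors' p under 0.001, 2.41 and 2.42. The shifts under other scalings follow from the factors, and the stricter p keeps 101 of the 182 windows by their difference itself. Flanks of 5 kb gave a summed ratio of 1.57 over 198 windows and 0.73 for Btbd35f18. At least 2-fold higher were 25 of 29 members with CpG-rich windows as the base, 28 with flanks of 5 kb, 22 of 22 with the stricter p and 10 of 10 with a minimum of 50 fragments. Of all called genes 62.7% were higher under library reads, 70.2% under the authors' scaling, 53.4% with TMM, 48.0% with autosomal counts, 40.3% with X counts and 29.2% with CpG-rich windows as the base. Those scalings put the median of all genes at 0.31, 0.44, 0.13, 0.034, -0.14 and -0.35. Depth limits single copies, whose wildtype counts were 10 to 70.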

Other observations

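Genes between the members varied in their ratios, with windows of members left out of their sums. The pseudogene Btbd35f24, from 3193879 to 3195827, had 276 knockout and 74 wildtype counts in 9 listed windows (log2 ratio 1.73, 0.94 to 2.51). Among the genes between the members, 12 others are protein-coding, 7 of which had a listed window and 3 the minimum of 20 fragments. These were Gm21466 with 121 knockout and 12 wildtype counts (3.17, 1.47 to 5.51), Spin2e, of the spindlin family of histone readers, with 142 and 17 (2.89, 1.52 to 4.95), and Gm5923 with 106 and 19 (2.31, interval from 0.87). Of 65 genes of other kinds in the blocks, 16 had the minimum, of which 7 were at least 2-fold higher and 0 lower. Their median log2 ratio was 0.86, with a range of 0.51 to 2.74, and 11 of the 16 lay below the lowest Btbd35f member. Among them the long noncoding RNA gene Gm46694 had 4049 knockout and 2425 wildtype counts (0.57, 0.43 to 0.72) and the pseudogene Gm14362 had 2708 and 1469 (0.71, 0.53 to 0.90). The transcribed pseudogene Gm5925 had 131 knockout and 19 wildtype counts (2.62, 1.19 to 4.27), and Gm14367 had 146 and 36 (1.85, 0.79 to 3.11).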
